A study of Mus musculus with 240 samples.

Results

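Pttg1 (pituitary tumor-transforming gene 1, ENSMUSG00000020415) encodes securin, and its RNA was followed across 8 mouse strains and 3 brain regions. The gene was taken by its name from the deposited read counts and matched by gene identifier to the normalized table. It is 1 gene of the 55414 in the count table and of the 14785 in the normalized table. It was chosen by its measured strain levels in these same data, so the strain levels below are a description and carry no test.

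The study measured poly(A) RNA in the inbred founder strains of the heterogeneous stock collaborative cross, with the aim of relating brain gene expression to strain differences in ethanol preference. The strains were C57BL/6J (B6), WSB/EiJ (WSB), NZO/HILtJ (NZO), 129S1/SvImJ (S129), PWK/PhJ (PWK), A/J (AJ), CAST/EiJ (CAST) and NOD/LtJ (NOD). Each gave 3 male and 3 female mice, 8 weeks old by the series record, and every mouse was naive, without any treatment. The central nucleus of the amygdala (CeA), nucleus accumbens core (NAcc) and prelimbic cortex (PrL) of each of the 48 mice were taken as tissue punches, so a group holds 6 libraries of 1 strain and region. The NAcc library of B6 mouse 1 was left out of the normalized table, which leaves 5 B6 libraries in that region. The mice of a strain are genetically alike, and a punch holds whatever cells lie in it.

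Securin binds separase, the protease that opens the cohesin ring, and holds it inactive until the sister chromatids are ready to part. The anaphase-promoting complex (APC/C), with its activators Cdc20 and Fzr1, then marks securin for destruction, and separase cuts cohesin. Securin was first found in pituitary tumors, is made mainly by dividing cells, and has also been described as a binding partner of p53 and as a regulator of transcription. The adult mouse brain holds few dividing cells.

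The start of the coding sequence is shown to identify the gene, whose reads were counted over all its transcripts together. It comes from GENCODE M21 on GRCm38, where Pttg1 lies on the minus strand of chromosome 11. The transcript shown has 6 exons and 741 bases, of which 600 are coding. The first 150 coding bases read as follows, 5′ to 3′, with the start codon in capitals.

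Pttg1: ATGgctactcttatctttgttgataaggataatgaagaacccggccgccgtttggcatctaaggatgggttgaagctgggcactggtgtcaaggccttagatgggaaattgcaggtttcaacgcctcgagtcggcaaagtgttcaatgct

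No other annotated gene matched this transcript at an e-value of 1e-05 among the 141767 transcripts of that annotation, and no annotated gene overlaps Pttg1. The 10 transcripts that did match were all of Pttg1 itself. A near-identical copy that could take up its reads was therefore not found in that annotation. The files were counted on another build, GRCm39, so positions are not given.

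Total counts of the libraries in the normalized table ranged from 14942820 to 33951616, with a median of 24456928. Levels are given as CPM, the usual scaling of a gene's counts to a common library total, and log2 differences come from limma-voom fits to the counts. The marker genes followed the region labels on the whole but overlapped between libraries. Over the strains other than B6, the summed level of 7 striatal projection neuron genes had a median of 3454 CPM in the NAcc, 1157 in the CeA and 152 in the PrL. Its range in the CeA, 258 to 7206 CPM, covered that of the NAcc, 609.6 to 6732 CPM. Each library is a bulk sample, in which fewer cells of a type and less RNA per cell cannot be told apart.

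B6 stood far above every other strain in all 3 regions. In the CeA the 6 B6 libraries held 20.4, 21.9, 21.9, 22.0, 22.3 and 22.6 CPM, with a mean of 21.8 ± 0.759 (SD, n = 6). In the NAcc the 5 B6 libraries held 12.8, 17.8, 18.3, 19.1 and 20.2 CPM, with a mean of 17.7 ± 2.85 (SD, n = 5). In the PrL the 6 B6 libraries held 19.3, 20.0, 20.6, 22.4, 22.7 and 27.6 CPM, with a mean of 22.1 ± 3.01 (SD, n = 6). These levels rest on 297 to 675 counts of Pttg1 per library. The B6 CeA libraries differed from each other by less than counting error gives, with a spread of 0.807 times the counting SD. The NAcc and PrL libraries of B6 spread 3.30 and 3.27 times as widely as counting error.

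The other 7 strains held little Pttg1 RNA. In the CeA their 42 libraries ranged from 0 to 1.88 CPM with a median of 0.365. In the NAcc the range was 0.164 to 4.08 CPM with a median of 0.767, and in the PrL it was 0 to 2.36 CPM with a median of 0.320. Of these 126 libraries, 13 had at most 3 counts and 5 had none. Those 5 were 2 WSB and 1 PWK library of the CeA, and 1 AJ and 1 PWK library of the PrL. A count of 0 allows a level of up to 0.129 to 0.166 CPM there (3 counts of the library total, counting error only). Very low levels of Pttg1 were thus detected in most libraries of every strain, and its absence was not shown for any strain.

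The ranges of B6 and of the other strains did not overlap. The lowest B6 library was 10.9 times the highest library of another strain for the CeA, 3.15 times for the NAcc and 8.18 times for the PrL. Such a separation on the high side was found for 0.223% of the genes tested in the CeA, 0.183% for the NAcc and 0.264% for the PrL, and for 10 genes (0.0676%) in all 3 regions. The B6 mean was 39.1 ± 10.5 (SE, from the 7 strain means) times the mean of the other strains for the CeA, 16.9 ± 4.46 times for the NAcc and 46.1 ± 19.9 times for the PrL. On the log2 scale of the fit, B6 minus the mean of the other 7 strains was 5.80 (SE 0.23) for the CeA, 4.51 (SE 0.22) for the NAcc and 6.12 (SE 0.19) for the PrL. The log2 values weigh the lowest libraries more than the ratio of means does. By this log2 difference the rank of Pttg1 among the genes higher in B6 was 2 in the CeA and PrL and 3 in the NAcc.

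**Figure D1:**
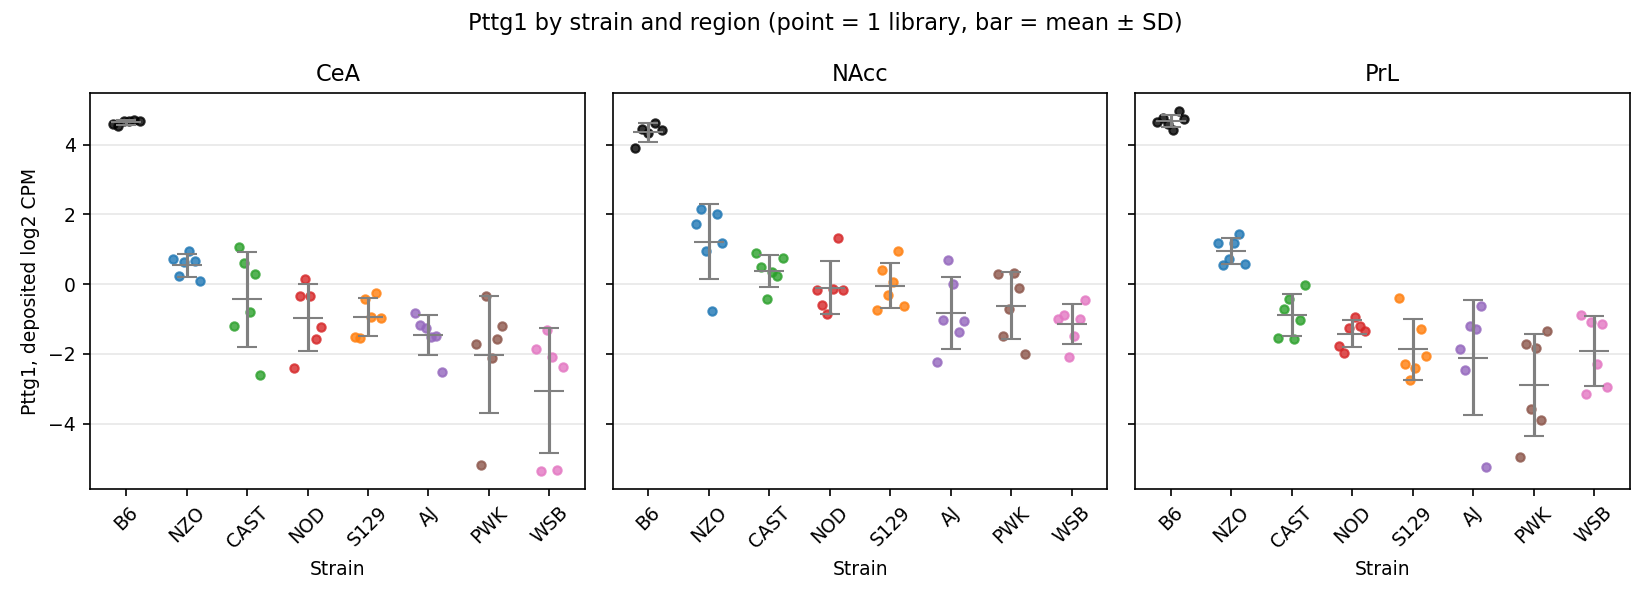
Deposited log2 CPM of Pttg1 (y axis) in each library, by strain (x axis) and region (panels), with points for single libraries and bars for the mean ± SD. B6 lies at 3.90 or above in every library, NZO is next highest by mean in each region, and the lowest points are libraries without a count.

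NZO came second in each region. Its 6 libraries held 0.892, 1.02, 1.36, 1.38, 1.40 and 1.73 CPM in the CeA, and 0.493, 1.76, 2.04, 3.10, 3.70 and 4.08 CPM in the NAcc. In the PrL they held 1.23, 1.27, 1.41, 1.93, 1.94 and 2.36 CPM. B6 remained 16.9 ± 1.60 (SE) times NZO for the CeA, 6.99 ± 1.60 times for the NAcc and 13.1 ± 1.61 times for the PrL. In the NAcc its mean was above that of CAST by 1.36 CPM, more than the pooled SD of 0.981, but the ranges overlapped. Only in the PrL did the NZO range stand clear of the strain below it, CAST, whose highest PrL library held 0.803 CPM. The NAcc libraries of NZO were the most widely spread of any group outside B6, with an SD of 1.35 CPM.

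The order below NZO was mostly within the spread of the libraries. CAST came next in each region, with means of 0.867 ± 0.664, 1.16 ± 0.335 and 0.468 ± 0.211 CPM (SD, n = 6) in the CeA, NAcc and PrL. NOD followed, at 0.516 ± 0.314, 0.954 ± 0.666 and 0.299 ± 0.0792 CPM in the same order of regions. S129 held 0.466 ± 0.187, 0.944 ± 0.471 and 0.251 ± 0.194 CPM, and AJ 0.315 ± 0.110, 0.610 ± 0.462 and 0.260 ± 0.187 CPM. From CAST downwards, no neighbours in the order differed by more than their pooled SD, except CAST over NOD in the PrL, whose ranges still overlapped. At the low end the mean was 0.148 ± 0.132 CPM in WSB for the CeA, 0.419 ± 0.159 in WSB for the NAcc and 0.140 ± 0.128 in PWK for the PrL. PWK, which the study groups with B6 for high ethanol preference, held 0.298 ± 0.240 CPM in the CeA and 0.689 ± 0.408 CPM in the NAcc, within the range of the other low strains. The ratio of B6 to PWK was 73.3 ± 24.2 (SE) for the CeA, 25.6 ± 6.47 for the NAcc and 158 ± 59.8 for the PrL.

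Part of the libraries were sequenced again. Of 96 libraries that were sequenced a second time, the Pttg1 share of the counts differed between runs in 5 by a two-sided exact binomial test at 0.05. None of the 12 B6 libraries among them did, and their runs differed by at most 13.4%, with a median of 7.04%. In the low strains this test rests on few counts, and single libraries moved by more. The PrL library of PWK mouse 8, for example, held 0 counts in its first run and 14 in its second.

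Regions were not used to choose the gene, so the differences between them were tested. The study left out genes whose mean CPM over all samples was low. Pttg1 averaged 0.694 CPM in the 126 libraries of the other strains, below the 0.932 CPM at which the separase gene Espl1 was left out. Its place among the tested genes thus rests on its level in B6. In the 7 strains other than B6, Pttg1 was higher in the NAcc than in the CeA and PrL. The mean of the strain means was 1.04 CPM in the NAcc, against 0.558 in the CeA and 0.479 in the PrL. The NAcc had the highest mean in each of these 7 strains, from 1.34 times the CeA in CAST to 2.83 times in WSB. It was also above the PrL mean in each, by up to 4.93 times in PWK. The NAcc library was above the CeA library of the same mouse in 33 of 42 mice, and above the PrL library in 35 of 42.

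The difference passed the test for both pairs, also with no filter on low counts. Averaged over these strains, CeA minus NAcc was -1.01 (SE 0.19) on the log2 scale, with an adjusted p of 1.21e-06 in limma. NAcc minus PrL was 1.29 (SE 0.20), with an adjusted p of 1.53e-08. CeA minus PrL was 0.28 (95% interval -0.16 to 0.71), with an adjusted p of 0.259, and 23 of 42 mice had more in the CeA. Region differences were common among all genes, since 69.4% of them passed for CeA against NAcc, 71.9% for CeA against PrL and 81.5% for NAcc against PrL. Within single sequencing trays, CeA minus NAcc was -1.13, -0.93 and -0.93, and NAcc minus PrL was 0.96, 1.62 and 1.31. With NZO left out they were -1.05 and 1.45. With the other run of trays 2 and 3, NAcc minus PrL was 0.80 (adjusted p = 1.55e-05) and CeA minus NAcc -0.87 (adjusted p = 1.71e-06).

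In B6 none of 5 mice had more Pttg1 in the NAcc than in the CeA or the PrL, and the B6 NAcc mean was 0.809 times that of the CeA and 0.798 times that of the PrL. These differences did not pass the test within B6. CeA minus NAcc was 0.29 (95% interval -0.01 to 0.58, adjusted p = 0.114 in limma), and NAcc minus PrL was -0.33 (95% interval -0.62 to -0.04, adjusted p = 0.0660). CeA minus PrL was -0.04 (95% interval -0.32 to 0.23, adjusted p = 0.835), and 3 of 6 mice had more in the CeA. The shares of all genes that passed these 3 contrasts were 29.1%, 50.0% and 43.2%.

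B6 and the other strains differed in their region pattern on the log2 scale when the difference itself was tested. The strain levels that chose the gene enter this contrast, so its p-values are not independent of that choice. The other strains averaged only 0.479 to 1.04 CPM, where the log2 scale weighs the lowest libraries more. For CeA minus NAcc, B6 was above the other strains by 1.30 (SE 0.24) on the log2 scale, with an adjusted p of 0.000129 in limma. For NAcc minus PrL the value of B6 minus the others was -1.61 (SE 0.25), with an adjusted p of 4.62e-06. For CeA minus PrL it was -0.32 (95% interval -0.83 to 0.20, adjusted p = 0.440). Of all genes, 18.0%, 13.6% and 12.5% passed these contrasts. Within single trays the first was 1.37, 0.98 and 1.52 and the second -1.26, -1.72 and -1.69. With the other run of trays 2 and 3 the second was -1.04 (adjusted p = 0.000862). With limma-trend at a prior count of 2 in place of voom the first fell to 1.13 and no longer passed (adjusted p = 0.0799).

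**Figure D2:**
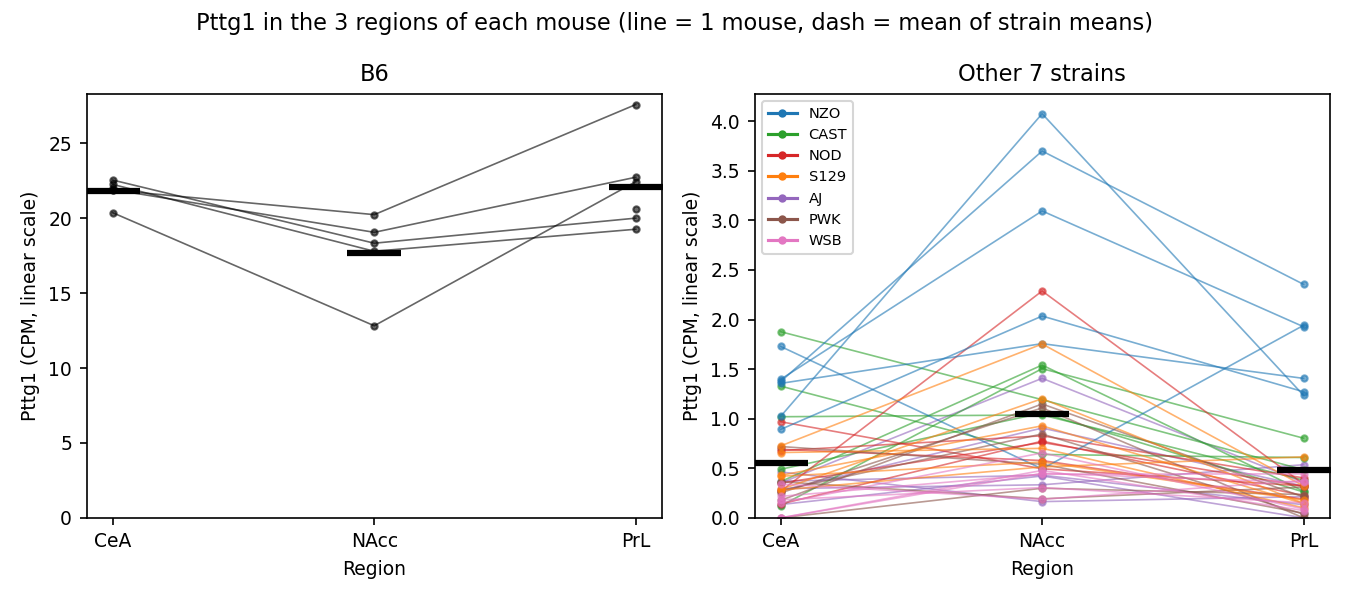
Pttg1 CPM on a linear scale (y axis) in the 3 regions (x axis), for B6 (left) and the other 7 strains (right, coloured by strain), with a line for each mouse and a dash for the mean of the strain means. The NAcc is lowest in each of 5 B6 mice and highest on average in the others, on y scales that differ between panels, and B6 mouse 1 has points without a line because its NAcc library was left out.

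Marker genes of several cell types moved with region, and their part in the region differences was not tested. The genes of the oligodendrocyte list, 5 in number with Mbp and Mog among them, summed to a median of 5950 CPM in the NAcc of the other strains, from 2184 to 16441. In their CeA the sum had a median of 2397 CPM, from 1104 to 13204, and in their PrL a median of 1420, from 625.1 to 4835. In B6 the medians were 8681, 7421 and 2243 CPM in the NAcc, CeA and PrL. None of these 5 genes had a median of 0 in any group.

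Across the 42 libraries of the other strains, Pttg1 and the oligodendrocyte sum were compared as deviations from their strain means on the log2 scale. Pearson's r was 0.71 in the NAcc (Spearman's rho 0.65), 0.61 in the CeA (rho 0.67) and 0.13 in the PrL (rho 0.22). Without the 2 libraries farthest from the median of the oligodendrocyte deviations, r was 0.60, 0.65 and 0.16. This sum gave the highest r in the NAcc and CeA among 12 marker and gene lists, and was singled out after these values were seen. Other lists were also positive in the NAcc, among them oligodendrocyte precursors (0.63), microglia (0.58), astrocytes (0.58) and endothelial cells (0.47). Striatal projection neurons and neuroblasts were negative there. Pallial glutamatergic neurons had an r of -0.21, a rho of 0.03, and an r of 0.17 without the 2 farthest libraries. Without centring on strain means, r of the oligodendrocyte sum was 0.20, 0.52 and -0.04 in the NAcc, CeA and PrL. The points share the library and its depth, so r is given as a description. In the CeA of B6 the sum ran from 5049 to 16908 CPM over the 6 mice, and Pttg1 stayed within 20.4 and 22.6 CPM. In the PrL of B6 the sum ran from 1498 to 4722 CPM and Pttg1 from 19.3 to 27.6 CPM, and mouse 33 had the highest value of both. In the 5 kept NAcc libraries of B6 the sum ran from 4149 to 9184 CPM and Pttg1 from 12.8 to 20.2 CPM. There mouse 33, with a sum of 5207 CPM, had the highest Pttg1, and mouse 9, with 8743 CPM, the lowest. The NAcc library of B6 mouse 1 that was left out had a sum of 20817 CPM and 35.5 CPM of Pttg1.

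**Figure D3:**
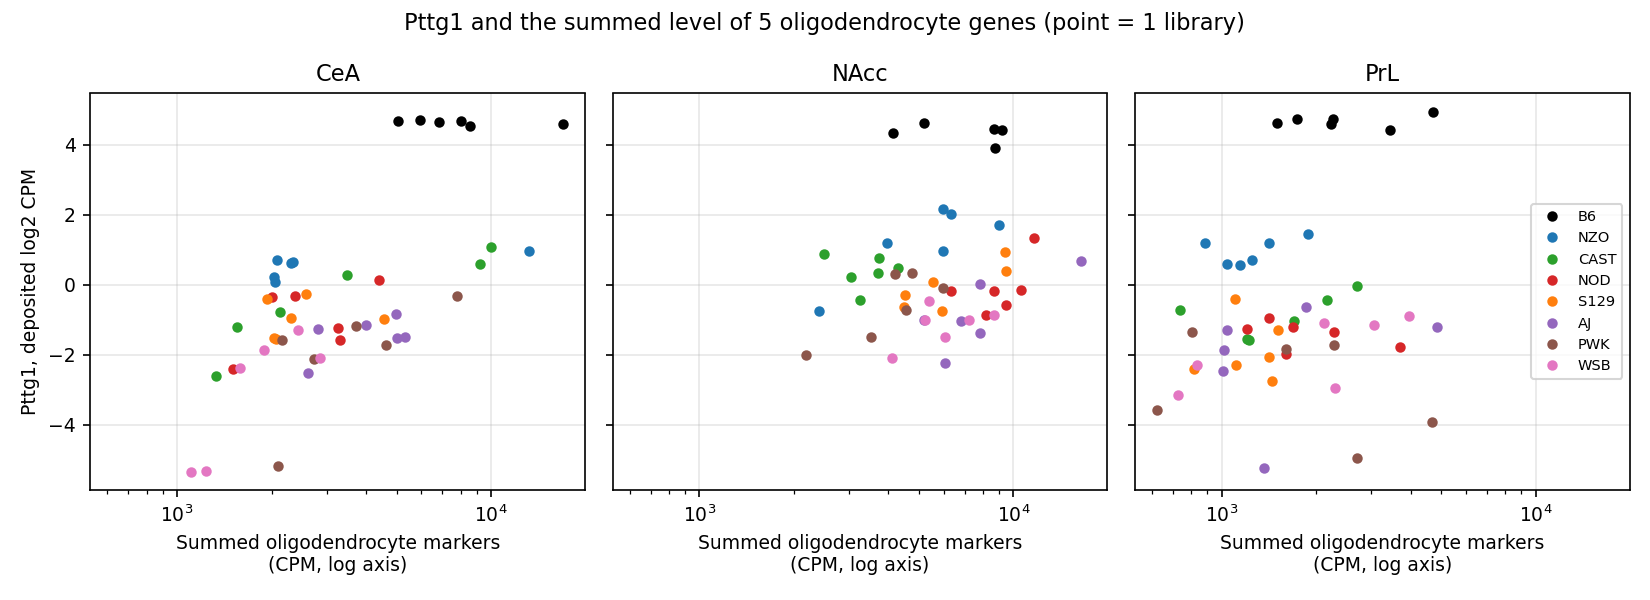
Deposited log2 CPM of Pttg1 (y axis) against the summed CPM of 5 oligodendrocyte genes (x axis, log scale) in each library, by region (panels) and strain (colours). Over the strains other than B6 together, deviations from the strain means rise with the sum in the CeA and NAcc. No trend was computed for single strains. The B6 points lie at the top of each panel and show no clear rise in the CeA or NAcc.

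Genes of dividing cells were also compared between regions. Of the 12 tested members of the mitosis and spindle checkpoint list, 8 were higher and 2 lower in the NAcc than in the CeA of the other strains, and 9 were higher and 1 lower in the NAcc than in the PrL. The list medians were -0.22 for CeA minus NAcc and 0.46 for NAcc minus PrL, against medians of -0.01 and 0.03 over all genes. Of all genes, 36.7% were higher and 32.7% lower in the NAcc than in the CeA, and 43.6% were higher and 37.9% lower in the NAcc than in the PrL. The summed level of the 20 listed genes overlapped between regions, with medians of 120, 109 and 107 CPM in the NAcc, CeA and PrL. A large part of this sum was Bub3, which resting cells also make. In the other strains Bub3 averaged 63.5, 60.8 and 60.0 CPM in the same order of regions. Top2a averaged 2.32, 0.756 and 1.05 CPM there, and Mki67 was also highest in the NAcc, with overlapping ranges for both. The sum and its correlation with Pttg1 therefore say little about dividing cells. That correlation within strains was 0.31 in the NAcc, 0.40 in the CeA and 0.17 in the PrL. In B6 none of the 12 passed for CeA against NAcc, where 29.1% of all genes did, and 1 was higher and 1 lower for NAcc against PrL, where 50.0% did. The difference between B6 and the other strains passed for none of the 12 in either contrast, where 18.0% and 13.6% of all genes passed.

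No difference between females and males in Pttg1 passed the test. In the other 7 strains the 21 females averaged 0.507, 0.955 and 0.424 CPM in the CeA, NAcc and PrL, and the 21 males 0.609, 1.13 and 0.535 CPM. In B6 the females averaged 22.1, 18.4 and 20.9 CPM and the males 21.6, 17.1 and 23.4 CPM, with overlapping ranges. On the log2 scale female minus male was -0.26 (95% interval -0.62 to 0.10) for the CeA, -0.11 (-0.48 to 0.26) for the NAcc and -0.26 (-0.53 to 0.00) for the PrL. The adjusted p was 0.805, 0.952 and 0.656 in limma, and 0.135%, 0.0812% and 0.0947% of all genes passed. Within single trays the values ran from -0.61 to 0.13.

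The genes that act with securin were then set beside it, in B6 against the mean of the other strains. Of 69 listed genes, 53 were in the normalized table. The other 16, among them separase and Cdc20, had mean levels from 0.0879 to 0.932 CPM and were not tested. Of the 53, 11 were higher and 5 lower in the CeA, 8 and 7 in the NAcc, and 10 and 6 in the PrL. The shares called were 30.2%, 28.3% and 30.2%, where 40.9%, 36.2% and 38.7% of all genes were called. Of all genes, 22.4% were higher and 18.6% lower in the CeA, 19.6% and 16.6% in the NAcc, and 19.2% and 19.5% in the PrL. The list medians of 0.02, -0.01 and 0.02 lay beside medians of 0.01, 0.01 and 0.00 over all genes.

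Separase, the enzyme that securin restrains, showed overlapping levels. Espl1, which encodes it, had a mean of 1.21 ± 0.822 CPM in the CeA of B6, where the other strains had 0.895 ± 0.463 (SD, n = 42). In the NAcc the values were 1.09 ± 0.431 and 1.05 ± 0.466 CPM, and in the PrL 0.954 ± 0.289 and 0.789 ± 0.389 CPM. No strain had an Espl1 mean above 1.59 CPM, that of PWK in the NAcc.

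Of the 11 tested genes of cohesin and its loaders, 4 were higher in the CeA and 3 each in the NAcc and PrL, and 1 was lower in the PrL. Smc3, a core subunit of the ring, was above the mean of the other strains in B6 by 0.13, 0.19 and 0.18 on the log2 scale (SE 0.04, 0.06 and 0.04). Its adjusted p in limma was 0.00780, 0.0136 and 0.00113. B6 had the highest Smc3 mean of the strains only in the PrL. In the CeA NZO held 61.1 CPM and B6 60.8, and in the NAcc AJ held 67.7 CPM and B6 66.5. Rad21, the subunit that separase cuts in mitosis, was not called in any region, at 0.01, -0.05 and -0.07. Rec8, the corresponding subunit of meiosis, was the only listed gene with a difference near that of Pttg1, with means of 8.65, 9.16 and 4.63 CPM in B6. PWK also held 7.16, 9.42 and 2.18 CPM of it, with ranges that overlapped those of B6, and in 5 strains libraries without a count make the fitted difference depend on the prior count.

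Of the 17 tested genes of the APC/C and its cofactors, 1 was higher and 3 lower in the CeA, 1 and 3 in the NAcc, and 2 and 1 in the PrL. No member passed in all 3 regions. Fzr1, the activator that keeps the complex at work in resting cells and neurons, was lower in B6 in the CeA at -0.23 (SE 0.04, adjusted p = 5.26e-05 in limma). It was lower in the NAcc at -0.12 (SE 0.05, adjusted p = 0.0426), and its value was -0.03 (SE 0.04, adjusted p = 0.488) in the PrL. Cdc20, the activator at metaphase, had 0.834 ± 0.157, 1.13 ± 0.430 and 0.822 ± 0.578 CPM in B6. The other strains had 0.768 ± 0.376, 1.32 ± 0.517 and 0.630 ± 0.230 CPM (SD, n = 42) in the same regions.

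The genes of cell division were counted in the same way. Of 12 tested genes of the mitosis and spindle checkpoint list, 2 were higher and 1 lower in the CeA, 1 and 2 in the NAcc, and 2 and 2 in the PrL. Mki67, a protein of cycling nuclei, had 1.30 ± 0.756, 2.75 ± 2.20 and 2.59 ± 2.26 CPM (SD) in B6, and the other strains ranged from 0.0784 to 2.87, 0.633 to 10.7 and 0.369 to 4.52 CPM. Its log2 differences of 0.61, 0.25 and 0.58 had adjusted p-values of 0.124, 0.738 and 0.225. Top2a, the topoisomerase of dividing cells, gave 0.50, 0.14 and 0.81 (adjusted p = 0.165, 0.849 and 0.198 in limma). Kif11, a mitotic kinesin, was higher in the CeA at 0.93 (SE 0.14, adjusted p = 1.47e-06) and the PrL at 0.63 (SE 0.20, adjusted p = 0.0109). Tpx2, a spindle assembly factor, was lower there at -0.61 (SE 0.12, adjusted p = 7.50e-05) and -0.36 (SE 0.12, adjusted p = 0.0143). Both were named after their values were seen. Bub3, a checkpoint protein that resting cells also make, was above the mean of the other strains in B6 by 0.17, 0.21 and 0.14 (SE 0.03, 0.04 and 0.03). It was not particular to B6, with means of 68.1, 69.1 and 66.5 CPM there and 68.5, 73.4 and 68.0 CPM in PWK. AJ, CAST and WSB had the lowest Bub3 means in each region.

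Of 13 binding partners and regulators, 4 were higher and 1 lower in the CeA, 3 and 2 in the NAcc, and 3 and 2 in the PrL. Usf1, a transcription factor, was lower in B6 in each region, at -0.38, -0.28 and -0.24 (SE 0.05, 0.05 and 0.03), with adjusted p-values of 2.31e-08, 3.73e-05 and 3.09e-07 in limma. Pttg1ip, a membrane protein that binds securin, was higher in the CeA at 0.28 (SE 0.08, adjusted p = 0.00353) and was not called in the NAcc (0.10, adjusted p = 0.137) or PrL (0.02, adjusted p = 0.875). Its level was 65.4 ± 11.8 CPM in the CeA of B6 and 53.6 ± 8.06 in the others, with overlapping ranges. Pttg1ip2, the only other gene in the count table whose name starts with Pttg, was not in the normalized table. Its mean was at most 0.0699 CPM in B6 and 0.290 CPM in the other strains.

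**Figure D4:**
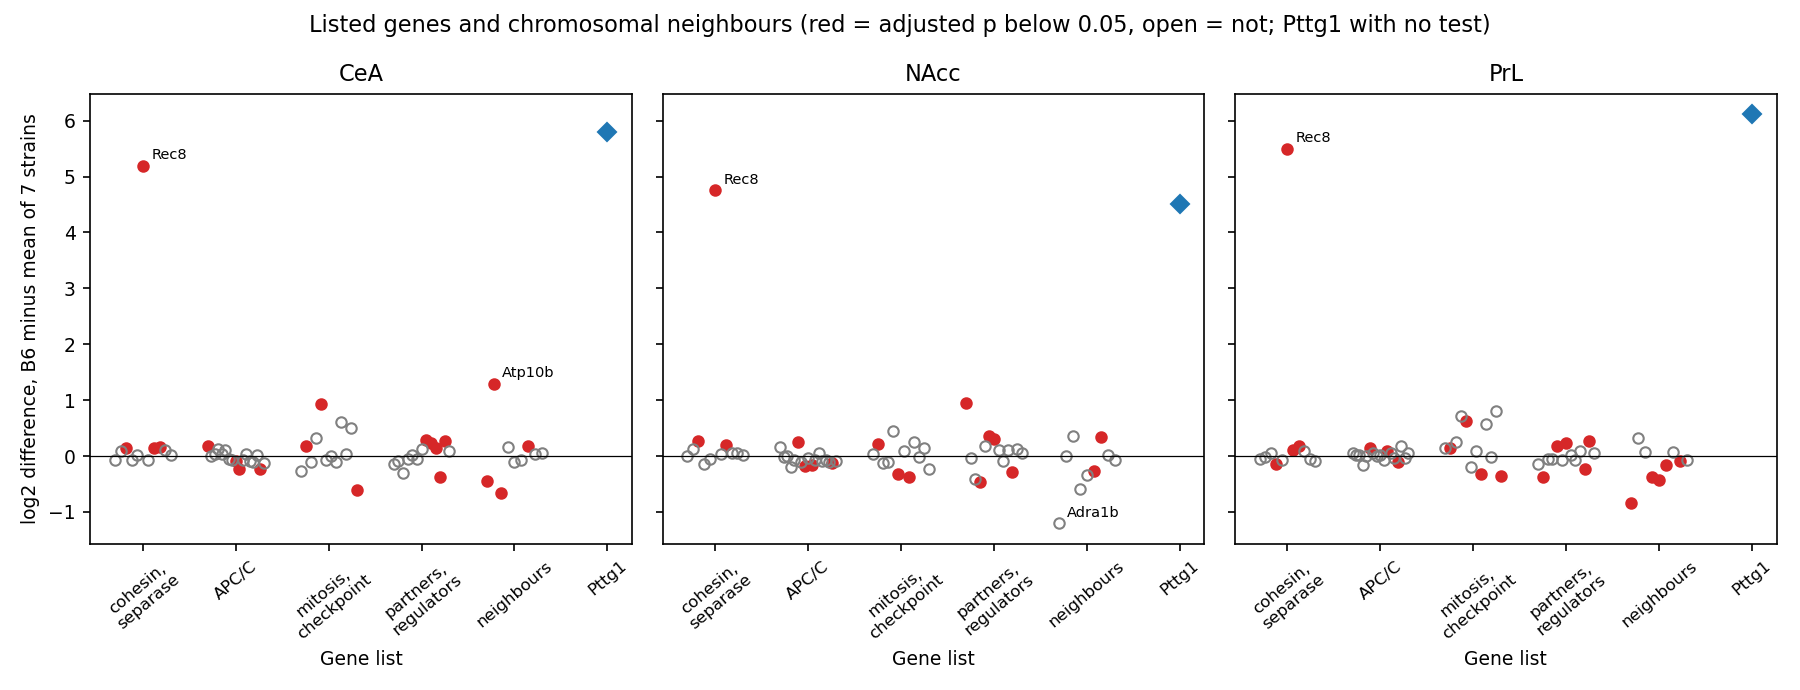
Log2 difference of B6 minus the mean of the other 7 strains (y axis) for each tested gene of the 4 lists and of the chromosomal neighbours (x axis), by region (panels), filled where the adjusted p was below 0.05. Apart from Rec8, at 4.75 to 5.50, the listed genes lie within -1.20 and 1.30, while Pttg1 (diamond, no test) lies at 4.51 to 6.12.

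The genes next to Pttg1 on chromosome 11 did not follow it. Of these 20 genes, the 10 nearest on either side, only 9 were in the normalized table. In the CeA 2 of the 9 were higher and 2 lower in B6, in the NAcc 1 was higher and 1 lower, and in the PrL 5 were lower, shares of 44.4%, 22.2% and 55.6% beside the same background. Slu7, a splicing factor and the next gene on the higher side, was at 0.04 and 0.02 in the CeA and NAcc, where it was not called, and at -0.10 (SE 0.03, adjusted p = 0.0198) in the PrL. Atp10b, a phospholipid flippase and the first tested gene on the other side, was higher in the CeA at 1.30 (SE 0.28, adjusted p = 0.000262 in limma). It was not called in the NAcc (0.00) or the PrL (0.32, adjusted p = 0.281). Its B6 range in the CeA, 2.85 to 9.39 CPM, overlapped that of the other strains, 0.819 to 7.38 CPM.

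The remaining neighbours moved by region. Pwwp2a, a chromatin reader, was higher in the CeA (0.18, SE 0.06) and NAcc (0.35, SE 0.08), and Ttc1 was not called in any region. Ccnjl, a cyclin-like gene, was lower in the CeA (-0.67, SE 0.27). Adra1b, an adrenergic receptor, was lower in the CeA (-0.44, SE 0.17) and PrL (-0.83, SE 0.16) and gave -1.20 (SE 0.53, adjusted p = 0.0714) in the NAcc. Gabrb2, a subunit of an inhibitory receptor, was lower in the PrL of B6 at -0.43 (SE 0.10). The counts of called neighbours were sensitive to single mice. Leaving out 1 B6 mouse at a time gave 2 to 3 called neighbours for the CeA, 1 to 2 for the NAcc and 3 to 6 for the PrL, with the fewest in the CeA without mouse 17 or 33 and in the PrL without mouse 25 or 33. In the NAcc 1 was called without mouse 9, 17, 33 or 41.

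Few genes had a pattern like that of Pttg1. Over the 24 means of strain and region in log2 CPM, 2 of the other 14784 genes had a Pearson's r above 0.9 and none above 0.95. D2hgdh, a dehydrogenase of 2-hydroxyglutarate, had the highest r at 0.913, followed by Aldh7a1, an aldehyde dehydrogenase of lysine breakdown, at 0.906. Slc39a2, a zinc transporter, followed at 0.890, Tmem260 at 0.872, Nit1 at 0.855 and Rpp25 at 0.849. Slc38a6, of an amino acid transporter family, had 0.849 and Hmgn2, a nucleosome-binding protein, 0.848. The 24 means include the B6 levels by which Pttg1 was chosen. Over the 21 means without B6, r of these 8 genes ran from 0.476 for Slc39a2 to 0.850 for Hmgn2. It was 0.700 for D2hgdh and 0.623 for Aldh7a1. Their differences between B6 and the other strains were far smaller than that of Pttg1, from 0.22 for Nit1 to 1.82 for Slc39a2 on the log2 scale in the CeA. D2hgdh held 11.4 ± 2.36 CPM (SD) in the CeA of B6, from 7.92 to 15.1, and the other strains 3.45 to 8.64 CPM. Aldh7a1 held 89.2 ± 10.1 CPM in the CeA of B6, and none of the other libraries there exceeded 57.5 CPM.

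The lowest r belonged to Gm11868 at -0.889, Gm3375 at -0.878, Eno1b at -0.870 and Gm5503 at -0.868. Over the 21 means without B6 their r was -0.506, -0.333, -0.329 and -0.211. In the CeA each was below 1 CPM in every B6 library, and no B6 library reached the lowest library of the other strains. Eno1b, an enolase retrogene, had a mean of 0.288 CPM in the CeA of B6 and 78.7 CPM in the other strains. Without B6, over 21 means, the highest r was that of Hmgn2 at 0.850, then Duxbl1 at 0.839, Slc38a6 at 0.839 and Syf2, a splicing factor, at 0.823. Hmgn2 and Slc38a6 were thus among the most similar genes with and without B6. Hmgn2 held 62.2 ± 8.56 CPM (SD) in the CeA of B6, while the other strains ranged from 16.3 to 67.4 CPM.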

How the data were processed

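RNA of 3 brain regions from 48 mice was measured as poly(A) RNA-seq. The authors aligned reads with STAR 2.7.3a and deposited read counts per gene (GRCm39, Ensembl annotation) for 144 libraries, 96 of them in 2 runs, without normalization, and log2 CPM for 143 libraries and 14785 genes (edgeR 3.38.1 and limma 3.52.2, TMM and voom). Trays 2 and 3 were sequenced again, and of these the normalized table holds run 1 for tray 2 and run 2 for tray 3. All libraries were aligned to a reference made from C57BL/6J, and how reads of other alleles mapped was not examined. A recalculation of these log2 values came within 5.00e-06 of those deposited.

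Pttg1, the gene lists and the marker lists were chosen with earlier results of these data known. Counts were fitted with TMM, voom and limma 3.58.1 (edgeR 4.0.16, R 4.3.3). Each region was fitted with strain, sex and tray for B6 against the mean of the other 7 strains (equal weights) and for sex. All regions were fitted together with 24 strain-by-region groups, sex and tray for the region contrasts. Adjusted p-values are Benjamini-Hochberg values over all 14785 genes, and over the 3 region contrasts together, with a threshold of 0.05. The fits were tested on simulated data, in which genes were changed in B6 only. No region difference was built into them, so the region contrasts were not tried on a true difference. The 3 libraries of a mouse are paired by the labels. Their residuals after the fit correlated weakly, with medians of 0.06 (CeA and NAcc, 47 mice), 0.03 (CeA and PrL, 48 mice) and 0.01 (NAcc and PrL, 47 mice), and the consensus correlation was 0.05. Mouse as a block was therefore an alternative. The labels number the mice, so p-values of the fits of single regions refer to separate animals. In the main fit of the region contrasts the 3 libraries of a mouse entered without a mouse term. The series record and the study's methods give different ages, and the former is used.

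Named genes were Pttg1, the 8 highest and 4 lowest in Pearson's r with it over 24 group means, the 4 highest over 21 means without B6, the tested neighbours among the 10 nearest genes per side (gene order of GRCm38), the list genes called in all 3 regions with 1 sign, Espl1, Pttg1ip, Cdc20, Fzr1, Mki67 and Top2a, and rows named Pttg. Some genes that enter the counts and sums are not reported here by name. Rad21, Kif11 and Tpx2 were named in addition, after their values were seen. Alternatives were DESeq2 1.42.0, the quasi-likelihood test of edgeR, other size factors, filters, weights, runs and library sets. Intervals of single counts cover counting error only.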

Additional observations from a re-analysis of the deposited data

Results flagged for a closer look

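Among the 24 groups of strain and region, a single library had a wide gap to the rest, relative to the range of its group, in 2. In the CeA of B6, mouse 9 held 20.4 CPM of Pttg1 while the other 5 mice held 21.9 to 22.6 CPM, and its exact Poisson 95% interval was 18.6 to 22.3 CPM. In the NAcc of NOD, mouse 39 held 2.29 CPM while the others held 0.495 to 0.827 CPM. Chance alone marks about 1 in 20 groups in this way.

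The region differences of Pttg1 were not the same in B6 and in the mean of the other 7 strains. B6 minus the others was 1.30 on the log2 scale for CeA minus NAcc and -1.61 for NAcc minus PrL, by the limma test of the difference itself. The strain levels that chose the gene enter this test.

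The NAcc library of B6 mouse 1, which the normalized table leaves out, held 35.5 CPM of Pttg1 (585 counts, exact Poisson 95% interval 32.7 to 38.5 CPM) and 39.0 CPM in its second run. The other 5 NAcc libraries of B6 held 12.8 to 20.2 CPM. Its striatal projection neuron genes summed to 229.7 CPM, against 3722 to 6409 CPM in those 5, and its oligodendrocyte genes to 20817 CPM, against 4149 to 9184 CPM. The part of these marker levels in its Pttg1 level was not tested.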

How the results depend on the processing

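Of 408 comparisons of a result with an alternative, 383 kept the side of the threshold or, where no test was made, moved by less than the spread within strains or, for a count of called genes, stayed within 1.5 times the count reported. Some comparisons could not differ, because the changed library was not in the fit. Examples are B6 minus the other strains in the CeA with 144 libraries (5.80) and in the NAcc without B6 mouse 1 (4.51). Without a test, 5 uncalled values changed sign within a tray. Female minus male was 0.03 in the CeA within tray 3 and 0.13 in the NAcc within tray 1. CeA minus PrL was 0.22 in B6 within tray 3, and within tray 1 it was -0.17 in the other strains and 0.10 for B6 minus the others. B6 minus the other strains ran from 5.47 to 6.08 in the CeA, 4.28 to 4.76 in the NAcc and 5.68 to 6.52 in the PrL over all alternatives. Female minus male in the NAcc turned to 0.0119 with sample quality weights, and was not called either way. Within B6, NAcc minus PrL passed without the tray term (-0.35, adjusted p = 0.0340) and with sample quality weights (-0.33, adjusted p = 0.0211). With the other run of trays 2 and 3, CeA minus PrL turned to -0.0729 in the other strains and to 0.00113 for B6 minus the others, uncalled in each fit. The same runs took NAcc minus PrL to 0.80 in the other strains and -1.04 for B6 minus the others, still past the threshold. With limma-trend, B6 minus the others for CeA minus NAcc was 1.13 (adjusted p = 0.0799). Over that result's alternatives the adjusted p ran from 1.30e-06 to 0.0799. With the left-out library kept, NAcc minus PrL within B6 was -0.20 (adjusted p = 0.311) and CeA minus NAcc 0.15 (adjusted p = 0.441).

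With the mouse as a replicate block, pairing its regions, CeA minus NAcc and NAcc minus PrL were -1.01 and 1.29 in the other strains, and B6 minus the others was 1.29 and -1.61. The block changed no call.

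Called pathway genes in the NAcc rose from 15 to 24 with sample quality weights. Called neighbours in the CeA went from 4 to 2 with no filter, to 2 as well when a mean of 5 CPM was required, and to 2 to 3 with 1 B6 mouse left out. In the NAcc they went from 2 to 1 with no filter, without the tray term and with 144 libraries, to 5 with DESeq2, to 6 with sample quality weights, and to 1 to 2 with 1 mouse left out. In the PrL they went from 5 to 3 without the tray term, with sample quality weights and with the other runs, and to 3 to 6 with 1 mouse left out. The cause was not tested. A mean CPM of at least 5 removes Pttg1 itself and gave no value for it. Leaving out NZO, or the 6 NAcc libraries with the lowest striatal markers, was chosen after the data were seen, and the latter gave -0.96 and 1.23 in the other strains. Single counts limit the order of the strains below NZO, where a library often held fewer than 10 counts.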
